A study of Mus musculus with 8 samples.

Results

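The 10 genes examined here encode receptors of the TNF receptor superfamily that T cells are known to express: Tnfrsf1a, Tnfrsf1b, Tnfrsf4, Tnfrsf9, Tnfrsf18, Tnfrsf12a, Tnfrsf25, Tnfrsf14, Cd27 and Fas. They were chosen by name as receptors of T cells, by a rule that uses no measured value, although earlier results of these data were known. They are 10 of the 23361 genes in the expression table. Each had 1 row, and all 10 passed the filter for testing. Expression was measured by RNA sequencing of induced regulatory T cells (iTreg), which are made in culture from naive CD4+ T cells by TGF-β and turn on the transcription factor Foxp3. The mice were labelled WT and carried a Foxp3-RFP reporter, a red fluorescent protein that marks Foxp3-expressing cells; the study's methods describe young adult male C57BL/6 animals. By the labels, all cells received anti-CD3/CD28 microbeads, IL-2 at 50 U/ml and TGF-β at 2 ng/ml, whereas the study's methods give IL-2 by mass, a unit not compared with it here. Viable CD4+ Foxp3-RFP+ cells were then sorted by the surface receptor Nrp-1 (neuropilin-1) into Nrp-1+ iTreg (4 libraries) and Nrp-1- iTreg (4 libraries). The labels give Day 5 as the time in one field and 3 days of culture in another. Both groups thus came from stimulated cultures, and no resting or TGF-β-free cells are part of the comparison. The libraries are labelled as biological replicates. Nothing states that they came from separate animals or cultures, so the p-values measure only the spread between these libraries.

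Receptors of this family sit in the cell membrane and bind trimeric ligands of the TNF superfamily, many of them carried on the surface of other cells. One branch, which includes CD27, OX40 (Tnfrsf4), 4-1BB (Tnfrsf9), GITR (Tnfrsf18), HVEM (Tnfrsf14), Fn14 (Tnfrsf12a) and TNFR2 (Tnfrsf1b), recruits TRAF adaptor proteins and leads mainly to NF-κB activation. The other branch, which includes Fas, TNFR1 (Tnfrsf1a) and DR3 (Tnfrsf25), carries a death domain in its cytoplasmic tail and can also start caspase cascades. Regulatory T cells are known for high levels of GITR, OX40 and TNFR2, and antibodies to several of these receptors have been used to alter their number or function.

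Values are given as FPKM, fragments scaled to transcript length and to the mapped fragments of the library. This unit allows an approximate comparison of levels between genes. Log2 fold changes (Nrp-1+ over Nrp-1-) are on the scale of log2(FPKM + 1), which understates changes of low genes. A gene was called at an adjusted p under 0.05 by limma with Benjamini-Hochberg adjustment over the 10467 genes with a mean of at least 1 FPKM. The exact permutation p is two-sided, compares mean FPKM, and with 4 libraries against 4 cannot go below 0.0286. The sort gene Nrp1 followed the labels, with a mean ± SD of 21.5 ± 0.709 FPKM over the Nrp-1+ libraries and 4.95 ± 0.262 over the Nrp-1- libraries (n = 4 each). Foxp3 was at 116 ± 3.72 and 109 ± 1.2 FPKM, 6.44% higher in Nrp-1+ iTreg (adjusted p = 0.0245), and the T cell genes Cd3e and Cd4 were not called. Of the other regulatory T cell genes checked, Il2ra (16.5% higher, adjusted p = 0.000108) and Ikzf2 (37.4% higher, adjusted p = 0.000853) were higher in Nrp-1+ iTreg and Ctla4 was lower (10.2% lower, adjusted p = 0.000938), all by limma and without overlap. Library depth, read from the steps of low FPKM values, was about 18700000 to 22600000 fragments in Nrp-1+ iTreg and 15500000 to 23900000 fragments in Nrp-1- iTreg. B cell and NK cell markers summed to at most 5.91 and 1.07 FPKM in any library. The B cell sum came mostly from Cd79b (mean 5.09 FPKM in Nrp-1+ and 4.58 in Nrp-1- iTreg), and Ms4a1 and Pax5 were listed at 0 in all 8. A mean under 1 FPKM was found for 4 of 5 B cell and 4 of 4 NK cell markers. The 6 myeloid markers summed to 6.94 to 7.72 FPKM in Nrp-1+ iTreg and 5.88 to 7.80 in Nrp-1- iTreg, with 5 of 6 under 1 FPKM and Itgam called higher (6.70 against 5.56 FPKM). The 4 dendritic cell markers (3 of 4 under 1 FPKM) summed to 9.61 to 11.8 against 12.4 to 16.4 FPKM, mostly through H2-Ab1, and the 2 CD8 T cell markers (1 of 2 under 1 FPKM) to 7.10 to 8.78 against 9.33 to 11.3. The 8 cell cycle genes moved with the groups, all 8 higher in Nrp-1+ iTreg, with a summed level of 1106.5 to 1147.5 FPKM against 581.6 to 599.2. The part of the myeloid, dendritic, CD8 T and cell cycle genes in the receptor values was not tested. In bulk RNA, fewer cells with a transcript and less transcript per cell cannot be told apart.

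Of the 10 receptors, Tnfrsf9 was higher in Nrp-1+ iTreg, Cd27, Tnfrsf1b and Tnfrsf25 were lower, and the other 6 were not called. These 4 called genes make 40.0% of the 10, beside 40.9% of all tested genes called in either direction (20.9% higher and 20.0% lower), so the share called was near the background. The groups did not overlap for 3 of the 10 (Cd27, Tnfrsf9 and Tnfrsf1b), beside 39.5% of all tested genes. No receptor changed 2-fold. The median log2 fold change was -0.041 over the 10 receptors and -0.016 over all genes tested, and the summed level of the 10 was 866 ± 15.1 FPKM in Nrp-1+ iTreg and 877 ± 20.5 in Nrp-1- iTreg. The calls were thus of single receptors, in both directions, and the summed levels of the subsets overlapped (847 to 883 against 847 to 893 FPKM).

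**Figure D1:**
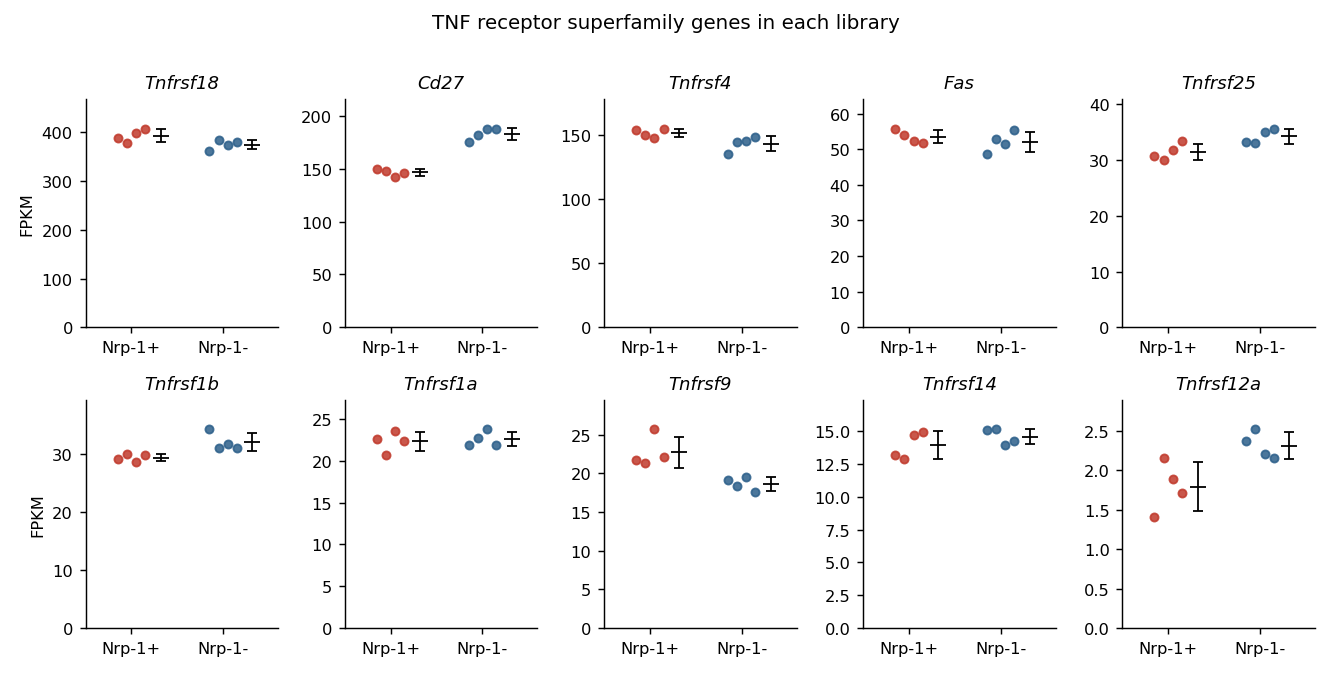
FPKM of the 10 receptors in each library, 1 panel per gene, with Nrp-1+ iTreg in red, Nrp-1- iTreg in blue, black bars for the mean ± SD (n = 4) and the vertical axis starting at 0. The points of Cd27, Tnfrsf9 and Tnfrsf1b do not overlap between the groups, with Cd27 at 143 to 149 against 176 to 188 FPKM.

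**Figure D2:**
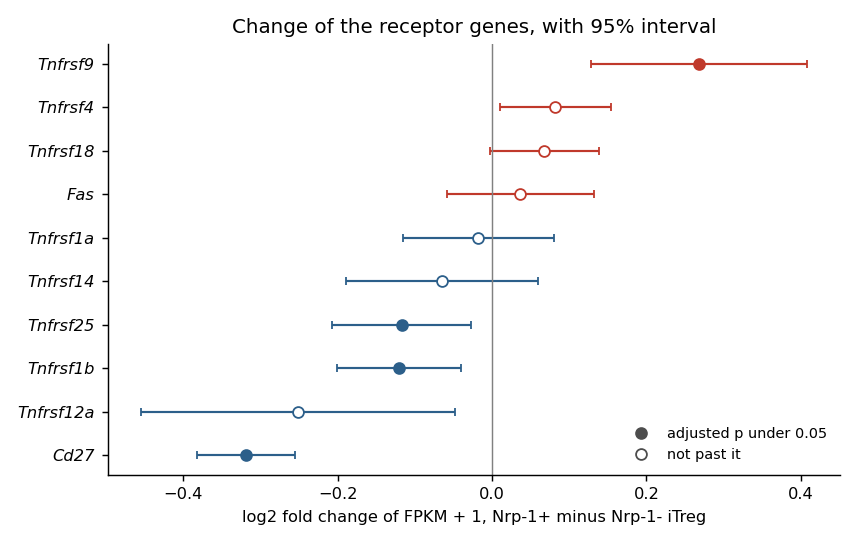
Log2 fold change of each receptor on the scale of log2(FPKM + 1), Nrp-1+ over Nrp-1- iTreg, with the 95% interval, and filled points where the adjusted p was under 0.05. Cd27 lies farthest below 0 (-0.32) and Tnfrsf9 farthest above (0.27).

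CD27 is the receptor for CD70 and a costimulator of naive and early activated T cells. Its mRNA was at 149, 148, 143 and 146 FPKM in Nrp-1+ iTreg replicates 1 to 4, and at 176, 182, 188 and 187 FPKM in Nrp-1- iTreg replicates 1 to 4. Every Nrp-1+ library was thus below every Nrp-1- library, with a gap wider than the whole range within either group. The mean was 147 ± 3.01 FPKM (SD, n = 4) against 183 ± 5.72 (SD, n = 4), or 19.9% lower, with a log2 fold change of -0.32 (SE 0.03, 95% interval -0.38 to -0.26) and an adjusted p of 5.05e-05 by limma (exact permutation p = 0.0286). Of all tested genes, 14.5% had a larger absolute log2 change. Cd27 rested on about 4332 to 6530.4 fragments per library. Over the 17 alternative settings and left-out libraries the log2 fold change lay between -0.34 and -0.31, with adjusted p from 4.12e-05 to 0.00326. Cd27 lies on chromosome 6 (GRCm38, chr6:125232620-125237136, minus strand), and the microRNA gene Mir8113, which was not analysed here, lies within it on the same strand.

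4-1BB, or CD137, is an activation-induced costimulatory receptor, known to appear on T cells after stimulation of the T cell receptor and to be expressed by activated regulatory T cells. Tnfrsf9 was at 21.7, 21.3, 25.7 and 22.0 FPKM in Nrp-1+ iTreg and at 19.1, 18.3, 19.6 and 17.5 FPKM in Nrp-1- iTreg. The groups did not overlap, and replicate 3 was the highest library of each group. The mean rose from 18.6 ± 0.887 to 22.7 ± 2.02 FPKM (SD, n = 4 each), 21.8% higher in Nrp-1+ iTreg, with a log2 fold change of 0.27 (SE 0.06, 95% interval 0.13 to 0.41, adjusted p = 0.00856 by limma, exact permutation p = 0.0286). Without Nrp-1+ replicate 3 the log2 fold change was 0.21, and over all alternatives the adjusted p lay between 0.00665 and 0.0255. Tnfrsf9 and Cd27 thus moved in opposite directions, and the ratio of their FPKM was 0.143 to 0.180 in Nrp-1+ iTreg and 0.0936 to 0.109 in Nrp-1- iTreg. Tnfrsf9 lies on chromosome 4 (GRCm38, chr4:150920155-150946104, plus strand).

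The promoter sequences of these 2 genes are shown because they carried the largest differences of either direction among the called receptors. The RefSeq promoter table holds 1 start for Cd27 and 2 for Tnfrsf9 (assembly GRCm38.p6), and the 250 bases before each start are printed 5′ to 3′ on the strand of the gene. The start given for Cd27 in the promoter table lies inside the annotated gene, so the last 109 bases of its window fall between that start and the 5′ end of the gene annotation. The second Tnfrsf9 start is an internal one, with its whole window inside the gene. Capitals mark matches, on either strand, to the NF-κB consensus (a motif of 10 bases), the AP-1 motif TGANTCA, the GC box GGGCGG or the TATA motif TATAAA.
Cd27 (chr6:125237028-125237277, minus strand): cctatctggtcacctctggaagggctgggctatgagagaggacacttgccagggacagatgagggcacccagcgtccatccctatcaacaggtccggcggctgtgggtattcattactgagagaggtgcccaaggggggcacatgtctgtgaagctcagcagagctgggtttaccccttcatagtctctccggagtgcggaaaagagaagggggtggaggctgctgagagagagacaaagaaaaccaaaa
Tnfrsf9 first start (chr4:150919905-150920154, plus strand): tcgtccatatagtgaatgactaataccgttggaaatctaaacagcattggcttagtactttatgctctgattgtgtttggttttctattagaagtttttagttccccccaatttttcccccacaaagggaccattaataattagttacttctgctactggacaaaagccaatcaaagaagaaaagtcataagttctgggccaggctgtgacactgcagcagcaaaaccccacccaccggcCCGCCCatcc
Tnfrsf9 second start (chr4:150927749-150927998, plus strand): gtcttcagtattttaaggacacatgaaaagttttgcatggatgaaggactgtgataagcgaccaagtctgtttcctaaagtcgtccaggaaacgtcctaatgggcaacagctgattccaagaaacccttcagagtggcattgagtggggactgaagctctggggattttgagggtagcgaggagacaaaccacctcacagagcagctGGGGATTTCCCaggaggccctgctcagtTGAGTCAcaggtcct

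The window of the second Tnfrsf9 start holds 2 overlapping matches to the NF-κB consensus, which begin 43 and 42 bases before the start, and an AP-1 match that begins 15 bases before it. The window of the first start holds a GC box 10 bases before the start, and the Cd27 window holds no match to the 4 motifs. All 10 receptors were matched in the promoter table, with 12 windows in all. NF-κB matches were found in 2 of the 12 windows (Tnfrsf9 and Tnfrsf25), AP-1 matches in 2 (Tnfrsf9 and Fas), GC boxes in 4 (Tnfrsf1b, Tnfrsf9, Tnfrsf12a and Fas) and the TATA motif in 0. Of all 32851 windows of the same length, 7.25% held the NF-κB consensus, 6.75% the AP-1 motif, 32.7% the GC box and 12.4% the TATA motif. A match is a description of the letters and not a binding site. The deposited FPKM do not tell which start was used.

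OX40 and GITR are costimulatory receptors with high expression in regulatory T cells, and their genes are neighbours, 9.71 kb apart on chromosome 4. Tnfrsf18, which encodes GITR, was the highest of the 10 receptors in all 8 libraries. It was at 388, 377, 399 and 407 FPKM in Nrp-1+ iTreg and at 362, 384, 373 and 379.8 FPKM in Nrp-1- iTreg, and the groups overlapped. The means were 393 ± 12.9 and 375 ± 9.76 FPKM (SD, n = 4 each), with a log2 difference of 0.07 whose 95% interval was -0.0026 to 0.14 (adjusted p = 0.113 by limma, exact permutation p = 0.0857). Tnfrsf4, which encodes OX40, was at 154, 150.1, 148 and 155 FPKM in Nrp-1+ iTreg and at 135, 144, 145 and 148 FPKM in Nrp-1- iTreg. The highest Nrp-1- library was at about the level of the lowest Nrp-1+ library. The means were 152 ± 3.20 and 143 ± 5.53 FPKM, with a log2 difference of 0.08 (SE 0.03, 95% interval 0.01 to 0.15) that missed the threshold at an adjusted p of 0.0673 by limma (exact permutation p = 0.0571). Without Nrp-1- replicate 4 the adjusted p of Tnfrsf4 was 0.0491, within a range of 0.0491 to 0.417 over the alternatives. The 95% intervals of Tnfrsf18 and Tnfrsf4 thus ended at 0.14 and 0.15 on the log2 scale. An annotated gene on the opposite strand, Gm16008, overlaps Tnfrsf18 and was not analysed here, and since the labels and the methods name different library kits it is not certain that the counting used strand.

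TNFR1 and TNFR2 are the receptors for TNF and lymphotoxin-α. TNFR1 is found on most cells and holds a death domain, whereas TNFR2 is largely restricted to lymphoid, myeloid and endothelial cells and is a known marker of highly suppressive regulatory T cells. Tnfrsf1b was at 29.1, 30.01, 28.5 and 29.7 FPKM in Nrp-1+ iTreg and at 34.2, 31.0, 31.7 and 31.0 FPKM in Nrp-1- iTreg. No Nrp-1+ library reached the lowest Nrp-1- library, and Nrp-1- replicate 1 was the highest of all. The mean fell by 8.35%, from 32.0 ± 1.5 to 29.3 ± 0.663 FPKM (SD, n = 4 each), with a log2 fold change of -0.12 (SE 0.03, 95% interval -0.20 to -0.04, adjusted p = 0.0243 by limma, exact permutation p = 0.0286). The call was lost without Nrp-1+ replicate 1 or without Nrp-1+ replicate 3, with adjusted p from 0.0273 to 0.0653 over the 8 fits with a library left out. Tnfrsf1a was at 22.6, 20.7, 23.6 and 22.3 FPKM in Nrp-1+ iTreg and at 21.9, 22.7, 23.8 and 21.9 FPKM in Nrp-1- iTreg. The groups overlapped, with Nrp-1+ replicate 2 below every Nrp-1- library. The means were 22.3 ± 1.18 and 22.6 ± 0.875 FPKM, with a log2 difference of -0.02 and a 95% interval of -0.12 to 0.08 (adjusted p = 0.769 by limma, exact permutation p = 0.80).

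DR3 is a costimulatory receptor with a death domain whose ligand is TL1A (Tnfsf15), and its stimulation is known to expand regulatory T cells in mice. Tnfrsf25 was at 30.8, 29.96, 31.8 and 33.3 FPKM in Nrp-1+ iTreg and at 33.2, 33.0, 35.0 and 35.6 FPKM in Nrp-1- iTreg. The groups overlapped through Nrp-1+ replicate 4, the highest of its group, which stood above the 2 lowest Nrp-1- libraries. The mean was 8.0% lower in Nrp-1+ iTreg, at 31.5 ± 1.45 against 34.2 ± 1.28 FPKM (SD, n = 4 each), with a log2 fold change of -0.12 (SE 0.04, 95% interval -0.21 to -0.03). The adjusted p was 0.0432 by limma and the exact permutation p 0.0857. This was the weakest call among the receptors, since it was lost in 9 of the 17 alternatives, 6 of them with a library left out (Nrp-1+ replicates 1, 2 or 3, or Nrp-1- replicates 1, 3 or 4). The adjusted p ranged from 0.0152 to 0.106 over the alternatives.

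Fas, the death receptor that ends clonal expansion when bound by Fas ligand, was at 55.7, 54.0, 52.4 and 51.6 FPKM in Nrp-1+ iTreg and at 48.7, 52.9, 51.4 and 55.4 FPKM in Nrp-1- iTreg. The 4 Nrp-1+ values lay within or just above the range of the Nrp-1- values. The means were 53.4 ± 1.81 and 52.1 ± 2.78 FPKM (SD, n = 4 each), with a log2 difference of 0.04 and a 95% interval of -0.06 to 0.13 (adjusted p = 0.510 by limma, exact permutation p = 0.486). With a library left out, the log2 difference of Fas lay between 0.006 and 0.066. Of the 3 receptors with a death domain, Tnfrsf25 was thus called, and Fas and Tnfrsf1a were not.

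HVEM binds LIGHT (Tnfsf14), lymphotoxin-α and the inhibitory receptor BTLA, and so can carry both activating and inhibitory signals. Tnfrsf14 was at 13.2, 12.8, 14.7 and 15.0 FPKM in Nrp-1+ iTreg and at 15.1, 15.1, 13.9 and 14.2 FPKM in Nrp-1- iTreg. In each group, 1 pair of libraries lay above the other pair, and the groups overlapped. The means were 13.9 ± 1.07 and 14.6 ± 0.602 FPKM (SD, n = 4 each), with a log2 difference of -0.06 and a 95% interval of -0.19 to 0.06 (adjusted p = 0.374 by limma, exact permutation p = 0.286). With a library left out, the log2 difference of Tnfrsf14 lay between -0.098 and -0.029.

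Fn14 is the receptor for TWEAK (Tnfsf12) and is better known from injured epithelium and muscle than from T cells. Tnfrsf12a was the lowest of the 10 receptors in all 8 libraries, at 1.41, 2.16, 1.89 and 1.71 FPKM in Nrp-1+ iTreg and 2.38, 2.52, 2.20 and 2.15 FPKM in Nrp-1- iTreg. The groups met at 1 point, since Nrp-1+ replicate 2 stood just above Nrp-1- replicate 4. The mean was 1.79 ± 0.315 against 2.31 ± 0.168 FPKM (SD, n = 4 each), 22.4% lower, with a log2 difference of -0.25 (SE 0.09) and an adjusted p of 0.0518 by limma (exact permutation p = 0.0571), so the gene missed the threshold. This gene rested on about 26.6 to 55.8 fragments per library, so fragment sampling alone gives a coefficient of variation near 15.9%, beside 17.5% and 7.25% measured within the groups. It was called with quantile normalization, without trend and without Nrp-1+ replicate 2, and the adjusted p lay between 0.0201 and 0.116 over the alternatives.

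Ordered by level per length, Tnfrsf18 stood alone at the top of the receptors, followed by Cd27 and Tnfrsf4 at 135 to 188 FPKM. Together these 3 held 79.8% of the summed FPKM of the 10 in Nrp-1+ iTreg and 79.9% in Nrp-1- iTreg. Fas came after them at 48.7 to 55.7 FPKM and was next in rank in all 8 libraries. Tnfrsf25 and Tnfrsf1b came next and were not distinct from each other, with a ratio of Tnfrsf1b to Tnfrsf25 of 0.892 to 1.00 in Nrp-1+ iTreg and 0.873 to 1.03 in Nrp-1- iTreg. Tnfrsf1a and Tnfrsf9 were also near each other in Nrp-1+ iTreg, with a ratio of Tnfrsf9 to Tnfrsf1a of 0.963 to 1.09, whereas it was 0.801 to 0.870 in Nrp-1- iTreg. Tnfrsf14 stood above only Tnfrsf12a in every library.

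The order of Cd27 and Tnfrsf4 differed between the subsets. Tnfrsf4 was above Cd27 in all 4 Nrp-1+ libraries, and Cd27 was above Tnfrsf4 in all 4 Nrp-1- libraries. The ratio of Cd27 to Tnfrsf4 was 0.944 to 0.989 in Nrp-1+ iTreg and 1.26 to 1.30 in Nrp-1- iTreg, with means of 0.968 ± 0.0184 and 1.28 ± 0.0208 (SD, n = 4 each). The ratio is a description within each library, and scaling between libraries cancels in it. Whether transcript length or the library kit shifts the level of 1 gene against the other was not tested. Of the 2 genes, Cd27 passed the test (log2 fold change -0.32) and Tnfrsf4 did not (0.08).

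**Figure D3:**
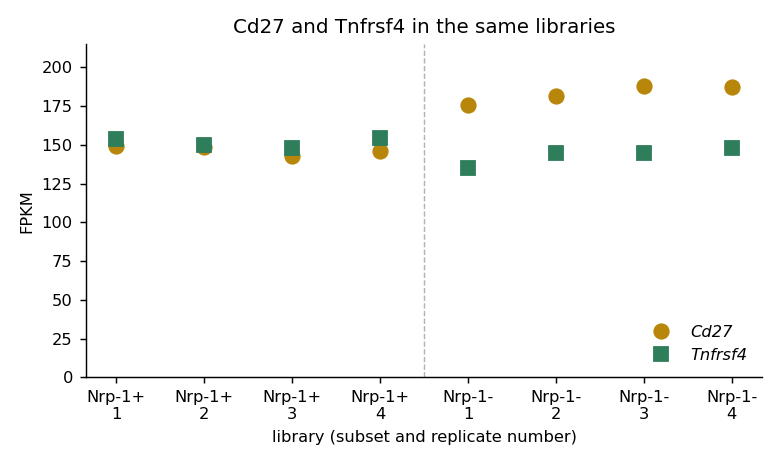
FPKM of Cd27 and Tnfrsf4 in each of the 8 libraries. In the 4 Nrp-1+ libraries the 2 genes lie close together with Tnfrsf4 above (Cd27 to Tnfrsf4 ratio 0.944 to 0.989), and in the 4 Nrp-1- libraries Cd27 is above Tnfrsf4 (ratio 1.26 to 1.30).

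By position, 6 of the 10 genes lie on chromosome 4 within 10.8 Mb (GRCm38), in the order Tnfrsf1b, Tnfrsf9, Tnfrsf25, Tnfrsf14, Tnfrsf4 and Tnfrsf18. These neighbours did not move together, since Tnfrsf9 was higher, Tnfrsf1b and Tnfrsf25 were lower, and the other 3 were not called. Cd27 and Tnfrsf1a are both on chromosome 6, Tnfrsf12a is on chromosome 17 and Fas on chromosome 19.

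Among the other receptors of the superfamily, 7 of 18 reached a mean of 1 FPKM. Of these 7, 2 were higher in Nrp-1+ iTreg (Cd40 and Tnfrsf13c), 1 was lower (Tnfrsf26) and 4 were not called. The share called was 42.9%, beside 40.9% of all tested genes, and so near the background. Cd40, better known as the costimulatory receptor of B cells and antigen-presenting cells, was at 1.32, 1.46, 2.16 and 1.79 FPKM in Nrp-1+ iTreg and at 0.507, 0.787, 0.609 and 0.859 FPKM in Nrp-1- iTreg. The groups did not overlap, and the mean of 1.68 ± 0.377 was 144% above that of 0.691 ± 0.161 FPKM (log2 fold change 0.66, SE 0.12, adjusted p = 0.00284 by limma), on about 28.3 to 146 fragments per library. Cd40 passed the filter only through its Nrp-1+ libraries, so the count of other receptors called higher is no support for a direction. It was also called in the fit of all genes without a filter. The part of other cells in the Cd40 values was not tested. Of the B cell markers, Cd79b was at 5.09 and 4.58 FPKM (adjusted p = 0.282 by limma), Cd79a at 0.589 and 0.390 FPKM with overlapping groups, and Ms4a1 and Pax5 were at 0. Of the myeloid markers, Itgam was higher, at 6.70 against 5.56 FPKM (adjusted p = 0.00136 by limma). The rest of that list had means under 1 FPKM and overlapping groups, and most of it was lower in Nrp-1+ iTreg. Cd68 was at 0.642 against 0.898 FPKM and Lyz2 at 0.0569 against 0.132. Csf1r was at 0 against 0.0198 FPKM, Cd14 at 0 against 0.0206 and Adgre1 at 0.0233 against 0.0202. The dendritic cell genes differed in both directions without overlap, with Zbtb46 at 0.188 against 0.0643 FPKM (under the filter) and H2-Ab1 lower at 10.2 against 13.8 FPKM (adjusted p = 0.0087 by limma), and Itgax and Flt3 were near 0. Tnfrsf13c, the BAFF receptor, was at 1.54 ± 0.121 against 1.22 ± 0.106 FPKM (adjusted p = 0.0465 by limma), a call that was lost in 8 of 16 alternatives (adjusted p from 0.0125 to 0.255 over all 16). Among the lost ones were the fits without Nrp-1+ replicates 1 or 3 and without Nrp-1- replicates 2 or 4. Tnfrsf26, a mouse receptor whose close relatives Tnfrsf22 and Tnfrsf23 lie beside it and may share reads with it, was at 18.7 ± 0.636 against 22.4 ± 1.03 FPKM, 16.6% lower (adjusted p = 0.00122 by limma). Tnfrsf10b, the mouse receptor for TRAIL, was at 3.22 ± 0.148 and 2.86 ± 0.128 FPKM, without overlap but at an adjusted p of 0.0564 by limma. It was called in 5 of 16 alternatives (with size factors, without trend, with array weights, and without Nrp-1+ replicate 4 or Nrp-1- replicate 1), over which the adjusted p lay between 0.0228 and 0.195. Tnfrsf13b (TACI) was as high as the middle members, at 24.1 ± 1.59 and 22.9 ± 2.57 FPKM, and was not called (adjusted p = 0.456), and neither were Tnfrsf22 and Relt (adjusted p = 0.173 and 0.940). Tnfrsf8, which encodes CD30, was under the filter, at 0.0707 to 0.142 FPKM in Nrp-1+ iTreg and listed at 0 in all 4 Nrp-1- libraries, on at most about 9.30 fragments.

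The ligands of the superfamily were expressed by the same sorted cells to very different degrees. Of 19 genes on the ligand list, which includes the HVEM partner Btla, 11 were tested. Of these 11, 6 were higher in Nrp-1+ iTreg, 1 was lower and 4 were not called. The share called was 63.6%, beside 40.9% of all tested genes (20.9% higher and 20.0% lower). The median log2 fold change was 0.19, beside -0.016 over all genes tested. The 6 higher ones were Tnfsf4, Tnfsf11, Tnf, Lta, Tnfsf10 and Cd40lg. The list is small and was chosen with results of these data known, so nothing is read from its share beyond these values.

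The tested ligand with the largest absolute log2 fold change was Tnfsf4, the ligand of OX40. It was at 16.4, 16.0, 15.2 and 15.5 FPKM in Nrp-1+ iTreg and at 9.73, 9.06, 7.36 and 8.0 FPKM in Nrp-1- iTreg. The lowest Nrp-1+ library was far above the highest Nrp-1- library. The mean was 84.6% higher, at 15.8 ± 0.502 against 8.54 ± 1.06 FPKM (SD, n = 4 each), with a log2 fold change of 0.82 (SE 0.07, 95% interval 0.65 to 0.99, adjusted p = 6.58e-05 by limma, exact permutation p = 0.0286). Its receptor gene Tnfrsf4, described above, was not called, and the ratio of Tnfsf4 to Tnfrsf4 was 0.10 to 0.106 in Nrp-1+ iTreg and 0.0508 to 0.0719 in Nrp-1- iTreg.

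The ligands of TNFR1 and TNFR2 rose while Tnfrsf1b fell. Tnf was at 12.8, 12.5, 11.4 and 12.1 FPKM in Nrp-1+ iTreg and at 8.63, 8.67, 9.94 and 8.85 FPKM in Nrp-1- iTreg, 35.3% higher without overlap (log2 fold change 0.40, SE 0.05, adjusted p = 0.000500 by limma). Lta, which encodes lymphotoxin-α, was at 41.9, 43.3, 36.5 and 40.3 FPKM in Nrp-1+ iTreg and at 32.0, 31.9, 31.8 and 31.6 FPKM in Nrp-1- iTreg, 27.2% higher without overlap (log2 fold change 0.34, adjusted p = 0.000844 by limma). Ltb, the membrane partner of lymphotoxin-α and the highest ligand, was 6.61% lower in Nrp-1+ iTreg, at 589 ± 18.7 against 631 ± 16.8 FPKM (SD, n = 4 each), with overlapping groups. Its adjusted p was 0.0329 by limma, and the call was lost with quantile normalization (adjusted p = 0.840) and when any of 6 libraries was left out (Nrp-1+ replicates 1, 2 or 3, or Nrp-1- replicates 2, 3 or 4; adjusted p from 0.056 to 0.085). Ltbr, the receptor for the complex that the 2 lymphotoxins form, was under 0.1 FPKM in every library.

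For CD27, Fn14, DR3, GITR, 4-1BB and Fas, the cells held little or no ligand mRNA, or ligand mRNA that was not called. Cd70, the ligand of CD27, was at 0 to 0.188 FPKM, Tnfsf12 (for Fn14) at most 0.0403 and Tnfsf15 (for DR3) at most 0.00863 FPKM. Tnfsf18, the ligand of GITR, was listed at 0 in all 8 libraries, beside the highest receptor level of the 10. Tnfsf9, the ligand of 4-1BB, was at 2.95 ± 0.279 and 2.85 ± 0.716 FPKM (SD, n = 4 each, adjusted p = 0.783 by limma), so the receptor and not its ligand passed the test. Fasl was at 0.945 ± 0.250 and 1.29 ± 0.481 FPKM (adjusted p = 0.306 by limma), from 0.785 to 1.93 FPKM within the Nrp-1- libraries. Of the partners of HVEM, Lta was higher as given above, Tnfsf14 was under the filter at 1.10 ± 0.237 and 0.731 ± 0.263 FPKM, and Btla was not called, at 24.7 ± 1.36 and 24.9 ± 1.59 FPKM (adjusted p = 0.876 by limma).

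Of the ligands of receptors outside the 10, Tnfsf11 (RANKL) was at 7.40 ± 0.841 against 5.08 ± 0.568 FPKM, 45.7% higher in Nrp-1+ iTreg (adjusted p = 0.00412 by limma). Tnfsf10 (TRAIL) was at 7.22 ± 0.283 against 5.72 ± 0.384 FPKM, 26.3% higher (adjusted p = 0.00199). Cd40lg, the ligand of CD40 and typical of activated CD4+ T cells, was at 34.4 ± 1.57 against 30.1 ± 0.476 FPKM, 14.4% higher (adjusted p = 0.00278). Tnfsf8, the ligand of CD30, was at 36.3 ± 1.72 and 35.4 ± 0.523 FPKM and was not called (adjusted p = 0.433).

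**Figure D4:**
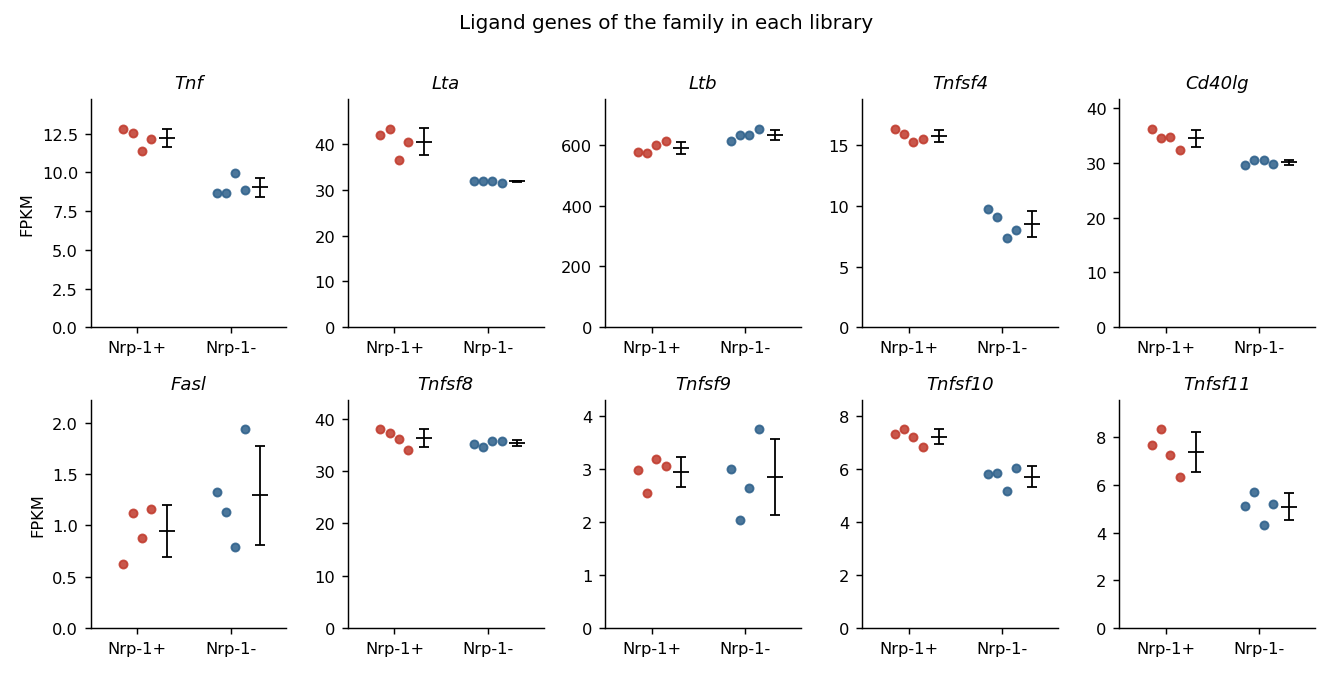
FPKM of 10 tested ligand genes in each library, 1 panel per gene, with Nrp-1+ iTreg in red, Nrp-1- iTreg in blue and black bars for the mean ± SD (n = 4). Tnfsf4 shows the widest gap, at 15.2 to 16.4 against 7.36 to 9.73 FPKM.

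Downstream of the receptors, all 24 genes on the adaptor list were tested: 3 were higher in Nrp-1+ iTreg, 9 were lower and 12 were not called, with a median log2 fold change of -0.068. The share called was 50.0%, beside 40.9% of all tested genes. The lower genes included inhibitors as well as activators of NF-κB signalling, so the count gives no direction for the pathway. Map3k14 encodes NIK, the kinase of the non-canonical NF-κB pathway that CD27, OX40 and other receptors of the TRAF branch can engage. It was at 10.1, 10.2, 9.41 and 9.83 FPKM in Nrp-1+ iTreg and at 13.2, 12.5, 13.0 and 12.5 FPKM in Nrp-1- iTreg, 22.7% lower without overlap (log2 fold change -0.34, SE 0.03, adjusted p = 9.57e-05 by limma). Tnfaip3, which encodes the NF-κB inhibitor A20, was at 32.3, 31.4, 32.0 and 32.3 FPKM in Nrp-1+ iTreg and at 37.6, 38.7, 38.0 and 37.6 FPKM in Nrp-1- iTreg, 15.7% lower without overlap (log2 fold change -0.24, SE 0.02, adjusted p = 3.89e-05 by limma). In both genes the libraries of a group lay close together.

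The ubiquitin ligases cIAP1 and cIAP2 join TRAF2 at the receptor tail, and their genes Birc2 and Birc3 were 9.26% and 16.8% lower in Nrp-1+ iTreg (adjusted p = 0.00950 and 0.000400 by limma). Of the linear ubiquitin chain complex, Sharpin and Rnf31 were 10.9% and 10.3% lower (adjusted p = 0.0112 and 0.0103), and Rbck1 was not called. The deubiquitinase gene Cyld (6.30% lower, adjusted p = 0.0242) and the kinase gene Ikbkb (6.51% lower, adjusted p = 0.0181) differed by less, and the Cyld call was lost without Nrp-1+ replicate 3 or Nrp-1- replicates 1 or 3 (adjusted p up to 0.0582). Of the 6 TRAF genes Traf1 was called, at 35.2 ± 1.66 against 38.6 ± 1.52 FPKM (adjusted p = 0.0339 by limma), with overlapping groups. The Traf1 call was lost in 7 of 17 alternatives, 5 of them with a library left out (Nrp-1+ replicates 1, 2 or 3, or Nrp-1- replicates 1 or 3), and the adjusted p lay between 0.013 and 0.0803 over all 17. Traf2, which several of the 10 receptors bind, differed by 0.05 on the log2 scale (adjusted p = 0.151), and Traf5 by -0.15 (adjusted p = 0.0652), which was called with quantile normalization, with array weights and without Nrp-1+ replicate 4 (adjusted p from 0.0111 to 0.152 over the alternatives). Traf3, Traf4 and Traf6 were not called (adjusted p = 0.239, 0.454 and 0.417), nor were Tank, Chuk and Ikbkg (adjusted p = 0.257, 0.147 and 0.705).

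Of the death domain adaptors, Fadd, which links Fas to caspase-8, was at 8.90, 8.16, 8.39 and 7.90 FPKM in Nrp-1+ iTreg and at 6.16, 6.24, 6.31 and 6.27 FPKM in Nrp-1- iTreg. The groups stood far apart, and the mean was 33.5% higher (log2 fold change 0.36, SE 0.04, adjusted p = 0.000130 by limma). Tradd, the adaptor of TNFR1 and DR3, was 9.44% higher (adjusted p = 0.0279), a call that was lost when any of 5 libraries was left out (Nrp-1+ replicates 2 or 3, or Nrp-1- replicates 1, 2 or 4; adjusted p up to 0.071). Map3k7, which encodes the kinase TAK1, was 12.0% higher (adjusted p = 0.00930). Casp8, at 71.9 ± 2.36 and 72.2 ± 1.81 FPKM, its inhibitor Cflar and the kinase gene Ripk1 were not called (adjusted p = 0.881, 0.358 and 0.190 by limma). The adaptor Fadd thus differed between the subsets while the receptor Fas and the caspase Casp8 did not pass the test.

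**Figure D5:**
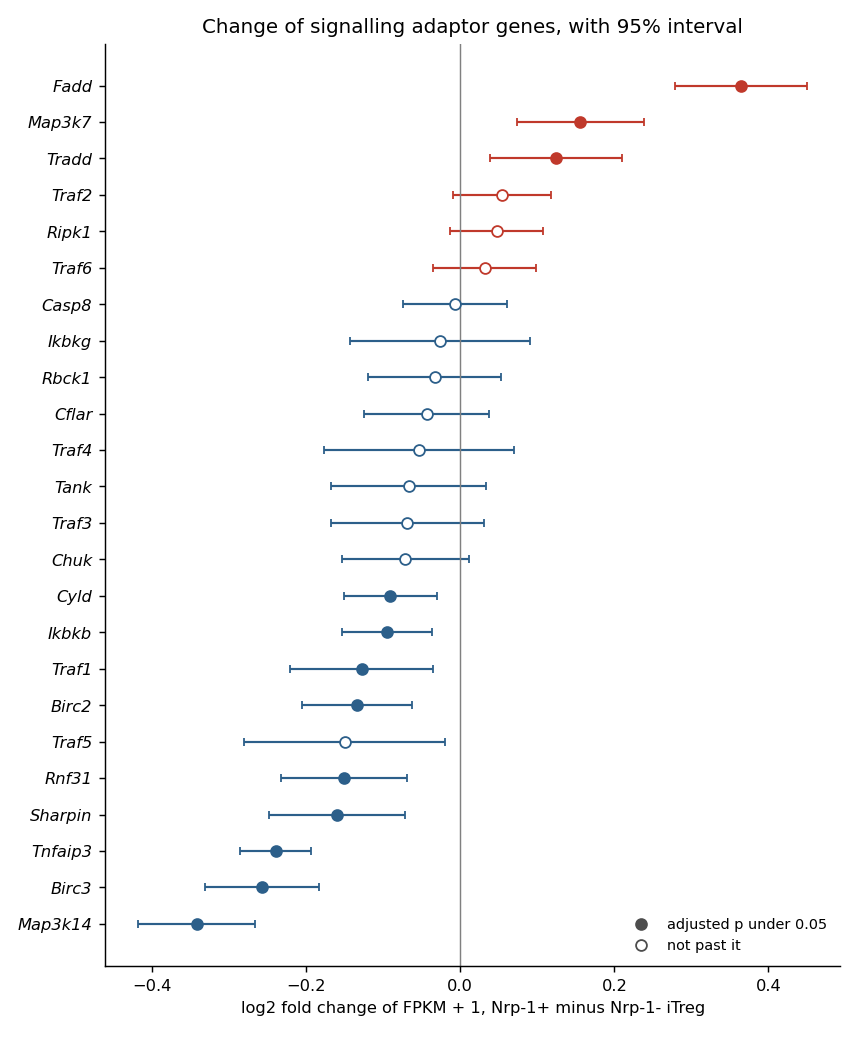
Log2 fold change of the 24 adaptor genes on the scale of log2(FPKM + 1), Nrp-1+ over Nrp-1- iTreg, with 95% intervals and filled points where the adjusted p was under 0.05. Fadd (0.36) lies farthest above 0 and Map3k14 (-0.34) farthest below.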

How the data were processed

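RNA was sequenced from 4 Nrp-1+ and 4 Nrp-1- iTreg libraries, grouped by the labels. Reads were handled by the authors in CLC Genomics Workbench, and the deposited table holds FPKM from Cufflinks, 1 value for each gene symbol in each library. The submitters' processing notes name GRCm38/mm10, and no scaling between libraries beyond FPKM is stated. Count models were not applied, since FPKM are no counts. The values were taken to log2(FPKM + 1) and tested by limma 3.58.1 (a linear model per gene, and eBayes with a trend on intensity) under R 4.3.3, over the 10467 genes with a mean of at least 1 FPKM, with Benjamini-Hochberg adjustment. Exact permutation tests, motif searches and plots used Python 3.11.15 and numpy 2.4.6. The fits were tested on simulated data.

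Alternatives used a pseudocount of 0.1 or 0.5, no filter, a mean of at least 5 FPKM, size factors, quantile normalization, the replicate block, eBayes without trend, array weights, and each library left out. Depth and fragment numbers were read from steps of low FPKM with GENCODE M21 lengths and are approximate. Between replicates the variance was 1.84 to 2.78 times that of fragment sampling, so no 2 libraries were taken as the same one; this does not tell separate cultures from preparations of 1 culture. Coordinates and promoters are from RefSeq GRCm38.p6. The members and the lists were chosen with earlier results of these data known. By the naming rule, all 10 members and each ligand of a member were named, other listed genes could be named from a mean of 1 FPKM, and Tnfrsf8, Ltbr and single marker genes were added after their values were seen. nTreg libraries were not analysed here.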

Additional observations from a re-analysis of the deposited data

Results flagged for a closer look

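Over the receptors, ligands and adaptors, 104 groups of 4 libraries were searched for a library far from the other 3, and 3 were found, where chance gives about 5.2. Tnf was at 9.94 FPKM in Nrp-1- iTreg replicate 3, beside 8.63 to 8.85 in the other Nrp-1- libraries, and still below all 4 Nrp-1+ libraries. Relt, a receptor outside the 10, was at 17.8 FPKM in Nrp-1- iTreg replicate 3, beside 16.8 to 17.0. Traf6 was at 25.8 FPKM in Nrp-1+ iTreg replicate 2, beside 24.8 to 24.9. None of the 10 receptors had such a library, although Tnfrsf9 came close in Nrp-1+ iTreg, where the gap of replicate 3 to the next library was 0.828 of the group's range, just under the critical value.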

How the results depend on the processing

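Each gene had 17 alternatives, or 16 where its mean was under 5 FPKM. Over these, 5 of the 10 receptors kept their direction and side of the threshold throughout (Cd27, Tnfrsf9, Tnfrsf18, Tnfrsf14 and Fas). So did 4 of 7 other receptors, 8 of 11 ligands and 18 of 24 adaptors. With a library left out, 1 to 3 receptors of the 10 were lower and 1 to 2 higher. Tnfrsf25 was not called without filter (-0.12, adjusted p = 0.0633), with size factors (-0.11, 0.0527) and without trend (-0.12, 0.0540), and lay between -0.14 and -0.095 with a library left out. Tnfrsf12a was called with quantile normalization (-0.29, adjusted p = 0.0277) and without trend (-0.25, 0.0404), lay between -0.31 and -0.18 with a library left out, and was not tested at a mean of at least 5 FPKM. With a library left out, Tnfrsf1b lay between -0.13 and -0.090, Tnfrsf4 between 0.055 and 0.099, and Tnfrsf1a between -0.044 and 0.015. Other receptors called higher numbered 1 with pseudocounts of 0.1 and 0.5 and with quantile normalization, 0 at a mean of at least 5 FPKM, a filter that leaves 3 of the 7 and removes Cd40 and Tnfrsf13c, and 1 to 3 with a library left out. Ligands called lower numbered 0 with quantile normalization and 0 to 1 with a library left out. Genes near 0 turned direction: Relt with size factors (7.01e-05) and from -0.032 to 0.044 with a library left out, Btla with array weights (0.0019) and from -0.057 to 0.017, Tnfsf9 from -0.058 to 0.16, Casp8 from -0.027 to 0.0058 and Ikbkg from -0.071 to 0.0022. Beyond the filter, the cause of these changes was not tested. Size factors lay between 0.998 and 1.004. Of the 10 receptors Tnfrsf12a rested on the fewest fragments, about 26.6 to 55.8 per library.

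The replicate numbers 1 to 4 are shared between the groups. Same-numbered libraries did not deviate together (correlations from -0.537 to 0.0104, 0 of 4 pairs over 0.1), so the numbers were not taken as pairs. Across the groups, libraries of different numbers had correlations from -0.551 to 0.596. The source of these was not tested, and neither the main fit nor the block models them. With the replicate block, 1 receptor of the 10 was higher and 2 were lower, with Tnfrsf1b at -0.12 (adjusted p = 0.0654), and 1 of the other receptors was higher. Over all genes the block gave 1931 higher and 1675 lower calls, beside 2189 and 2093 without it.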
